A study of Mus musculus with 43 samples.

Results

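Liver of mice labelled KO was compared between dietary restriction (DR) and ad libitum (AL) feeding, across every gene that the deposited expression table gives at a usable level. The members were the entries of the table whose status was OK in both groups and whose FPKM, a read level scaled to transcript length and sequencing depth, was at least 1 in KO DR or KO AL liver. They numbered 14005 of 42349 entries, and 609 of them join several overlapping genes under 1 value. At the limit, the lowest member had 1.00 as the larger of its FPKM values and the highest entry outside 0.9998. The mice were females with a global deletion of Irs1 (Irs1-/-, labelled KO) or its wild type (Irs1+/+, labelled WT), and tissue was taken at 15 months of age. KO AL and WT AL mice ate chow freely, while KO DR and WT DR mice were kept for 12 months on 30% DR, stepped in from 10 weeks of age, and were fed between 1630 and 1730 h. Lights were on from 0700 to 1900 h in all groups, and the hour at which tissue was taken is not given. Restriction, the set meal hour and the time since the last meal therefore cannot be told apart in these groups. The labels give 3 liver libraries for KO AL, KO DR and WT DR and 2 for WT AL, and name as many mice per group, all from polyA-selected RNA.

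The liver is the organ that turns most visibly with feeding and fasting. After a meal insulin raises the synthesis of fatty acids and sterols, largely through the SREBP transcription factors, while fasting raises fat oxidation, ketone bodies and hormones such as FGF21 and the binding protein IGFBP1. The liver clock runs beneath this and is set by the time of feeding. BMAL1 and CLOCK bind E-box sequences and drive the PER and CRY repressors, and the output factors DBP, TEF and NFIL3 act on D-box sequences. IRS1 carries the signal of the insulin and IGF1 receptors.

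Irs1, on the minus strand of chromosome 1 (82233101 to 82291416 of GRCm38), had an FPKM of 5.95 (95% interval 3.31 to 8.59) in KO AL and 4.75 (2.57 to 6.94) in KO DR liver, against 4.70 (1.96 to 7.45) in WT AL and 3.29 (1.57 to 5.02) in WT DR. The KO values were no lower than the WT values, so the genotype label could not be checked by this gene and every direction here is that of the groups labelled KO. The table gives 1 pooled FPKM with a 95% interval per group, with no value per library, so sequencing depth is unknown and the error of a difference is the standard error (SE) that these intervals imply. All 16 hepatocyte markers were members, none was called, and Alb and Apoe were among the 10 entries with the highest level. The SD was in the median 31.4% of the FPKM in KO AL and 33.0% in KO DR liver. Nothing in the labels says that the libraries of a group came from separate batches, and p-values measure only the spread that the authors' intervals hold.

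Of the 14005 members, 13747 had a value above 0 in both groups and were tested (two-sided Wald test on the log2 ratio, Benjamini-Hochberg adjustment over all of them, FDR of 10%). In KO liver 38 entries rose with DR (0.276% of those tested) and 46 fell (0.335%), and 394 had an unadjusted p under 0.05. The median log2 difference, DR less AL, was -0.03, and the middle range of the entries ran from -0.35 to 0.29. The median SE was 0.69, so that small differences could seldom pass. With each SD divided by the square root of the number of libraries, 262 entries were higher (1.91%) and 398 lower (2.9%), and this alternative is called the smaller SE below. The sources used here do not state whether an interval describes a single library or the mean of its group, so it is not known which of these SE applies, and the larger is used unless the smaller is named. The 95% intervals of both groups were apart for 81 of the 84 entries called, beside 59 higher and 91 lower entries among all 13747 tested. The test takes its SE from these same intervals, so intervals lying apart are no further support for a call, here or for single genes below. No exact test over samples could be run on pooled values, and a normal reference is lenient for groups of 3 libraries, so the calls are given without single p-values. With a t distribution in its place, 1 entry was higher and 8 lower, and of the protein-coding genes named below only Hist1h4i was among them.

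The calls fell into kinds that differ in what they measure. Of 10336 protein-coding genes with an entry of their own, 16 rose and 20 fell. Among 178 short non-coding RNAs 10 rose and 16 fell, and 14.6% of them were called against 0.348% of the protein-coding genes. The called short RNAs had a median SE of 0.21, while the median SE of all 178 was 1.29. Most of those called are snRNAs, snoRNAs, ribosomal RNAs and mitochondrial tRNAs, and short RNAs of these kinds mostly carry no long polyA tail. Rnu5g, a U5 spliceosomal RNA, had an FPKM of 344.0 in KO AL and 6.89 in KO DR liver, and the 5S RNA gene n-R5s193 had 240.4 and 7.98. Their entries are copies in many-member families, so the division of reads among copies is uncertain. The plot of level against log2 difference sets these entries beside the protein-coding genes.

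**Figure D1:**
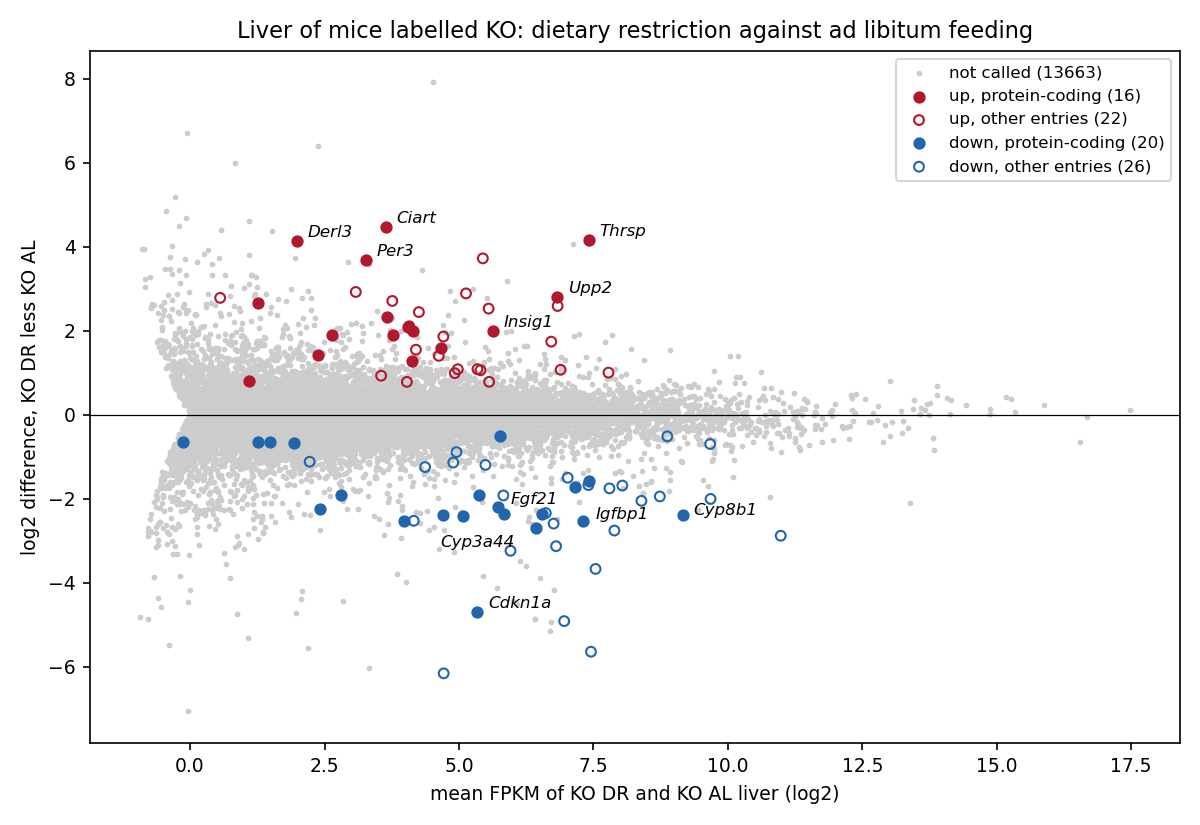
Log2 difference between KO DR and KO AL liver (y axis) against the log2 of the mean FPKM of both groups (x axis), 1 point per entry tested. Filled points are the 16 protein-coding genes that rose and the 20 that fell, open points the other entries called, and grey points the 13663 not called. Thrsp, Ciart, Derl3 and Per3 lie above 3.5 and Cdkn1a below -4.

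The clock genes held the largest rise among the protein-coding genes called, and 2 of 14 core clock genes rose and none fell. Since the DR mice alone had a set meal hour, restriction and meal time cannot be told apart for these genes. Ciart, a repressor of CLOCK and BMAL1 on chromosome 3 (95878503 to 95882251), had an FPKM of 1.08 (0 to 2.61) in KO AL and 23.9 (5.88 to 41.9) in KO DR liver, a 22.1-fold rise (log2 difference 4.46, SE 1.15). Per3, a period gene on chromosome 4 (151003652 to 151044665), had 1.40 (0 to 2.83) in KO AL and 17.9 (5.93 to 29.9) in KO DR, a 12.8-fold rise (log2 difference 3.68, SE 0.88). The intervals of KO DR lie wholly above those of KO AL for both genes. Among 10 clock output genes 1 was called. Nfil3, the repressor of D-box genes on chromosome 13 (52967209 to 52981073), fell from 56.9 (34.8 to 79.1) in KO AL to 10.7 (4.77 to 16.6) in KO DR, a 5.32-fold fall with intervals apart (log2 difference -2.41, SE 0.49).

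The promoters of these 3 genes are shown because each holds a different one of the clock's own binding sequences. They run from 250 bases before to 50 after the RefSeq start, on the minus strand of GRCm38.p6, and the capitals mark the E-box CACGTG in Ciart, the D-box TTATGTAA in Per3 and the element GTAGGTCA of REV-ERB and ROR factors in Nfil3, read here on its opposite strand. Both strands were searched, and the marked runs do not overlap each other.
Ciart, chr3:95882179-95882478: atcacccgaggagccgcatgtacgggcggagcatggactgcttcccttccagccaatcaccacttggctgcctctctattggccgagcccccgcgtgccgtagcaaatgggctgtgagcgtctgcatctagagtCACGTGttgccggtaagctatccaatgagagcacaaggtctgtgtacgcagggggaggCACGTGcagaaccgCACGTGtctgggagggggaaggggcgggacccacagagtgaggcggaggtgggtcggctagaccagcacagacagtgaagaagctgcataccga
Per3, chr4:151044616-151044915: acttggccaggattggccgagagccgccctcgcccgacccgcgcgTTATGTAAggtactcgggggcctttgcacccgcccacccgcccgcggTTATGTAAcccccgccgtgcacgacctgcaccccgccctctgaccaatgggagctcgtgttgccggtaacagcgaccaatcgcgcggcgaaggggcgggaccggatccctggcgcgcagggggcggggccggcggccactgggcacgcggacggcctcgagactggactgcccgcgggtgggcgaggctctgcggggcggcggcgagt
Nfil3, chr13:52980990-52981289: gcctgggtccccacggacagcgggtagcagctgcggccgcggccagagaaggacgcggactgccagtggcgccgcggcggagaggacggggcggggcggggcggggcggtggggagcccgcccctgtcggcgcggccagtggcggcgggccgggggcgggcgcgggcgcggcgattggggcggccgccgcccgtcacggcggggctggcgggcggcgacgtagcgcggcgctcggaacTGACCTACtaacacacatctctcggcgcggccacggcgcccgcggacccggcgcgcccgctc
Ciart holds 3 E-boxes, beginning 116, 58 and 44 bases before the start, and Per3 holds 2 D-boxes at 205 and 158 bases before it. Nfil3 holds 1 element 12 bases before its start. Among all 32851 promoters of the table, 7.15% hold the E-box, 0.938% the D-box and 0.621% the GTAGGTCA element. Of the 11 core clock genes with a promoter in the table, 4 hold an E-box (Bhlhe41, Ciart, Cry1 and Per1), 1 a D-box and 1 the GTAGGTCA element (Arntl). Of the 8 clock output genes with a promoter there, 3 hold an E-box, none a D-box and 1 the GTAGGTCA element (Nfil3). A match is a run of letters and not a measured site.

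Other clock genes lay far from zero without passing the FDR. Dbp, the D-box activator, had an FPKM of 15.7 (0 to 45.1) in KO AL and 262.7 (68.6 to 456.9) in KO DR liver (log2 difference 4.07, SE 1.45). Usp2, a deubiquitinase under clock control, had 6.59 and 50.7 (2.94, SE 1.01). Arntl, which encodes BMAL1, had 2.94 (1.27 to 4.60) in KO AL and 0.251 (0 to 0.628) in KO DR (-3.55, SE 1.16). Its interval in KO DR lies below that in KO AL, opposite to the period and PAR bZIP genes. Tef had 36.1 and 112.3, and Cry2 6.65 and 16.8. The core clock list had 11 genes higher and 3 lower in KO DR, 1 in each direction with an FPKM of at least 1 only in the group where it is higher, and a median log2 difference of 0.97, beside -0.03 over all entries, and with the smaller SE 6 of its genes were higher and 1 lower. Per2 (13.9 against 3.04) had an SE of 3.26, so its difference could not be resolved.

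**Figure D2:**
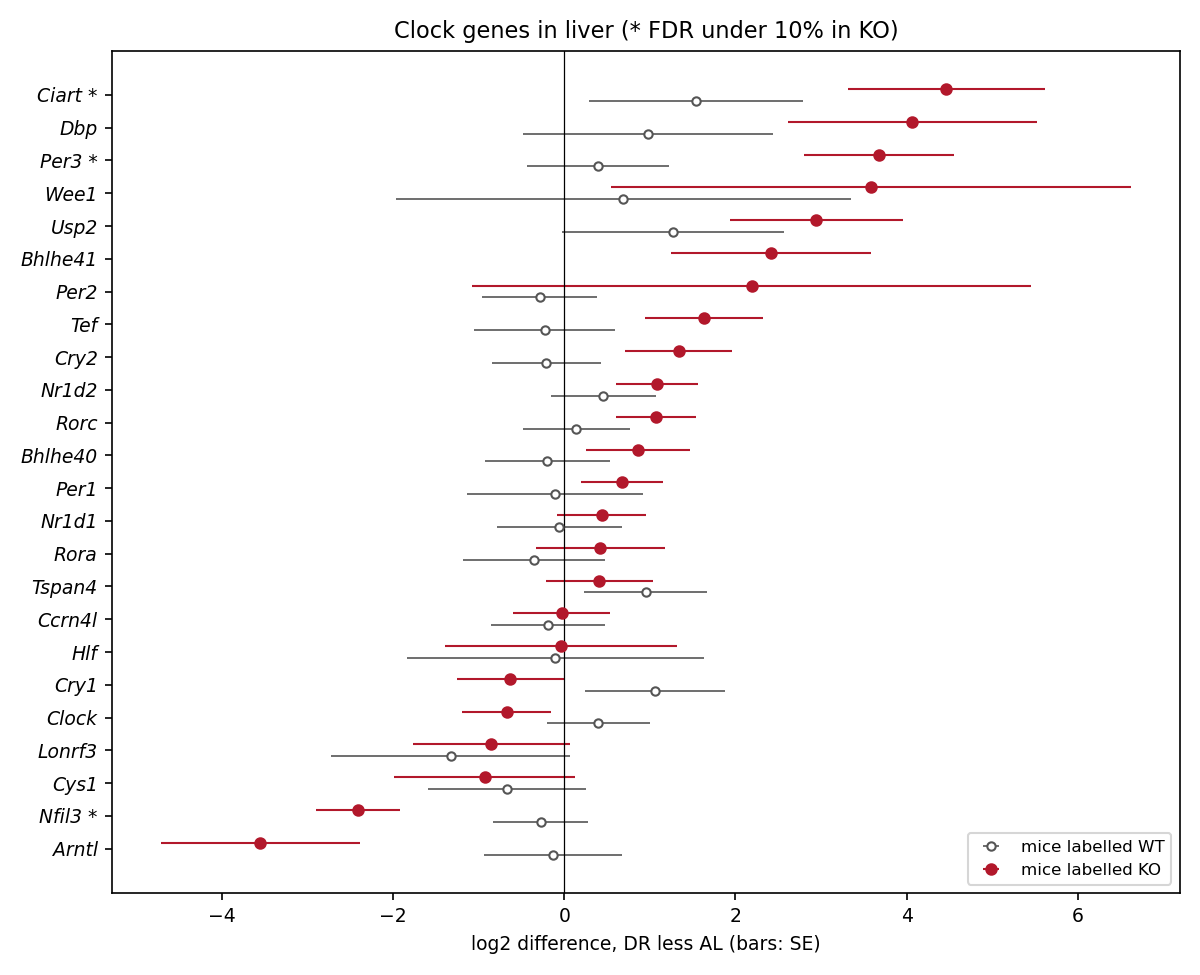
Log2 difference between DR and AL liver (x axis, bars are the SE) of the 24 clock genes tested, in mice labelled KO (filled) and WT (open). Ciart, Per3 and Nfil3, marked with a star, passed the FDR of 10% in KO, and Arntl lies lowest at -3.55.

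Of 24 genes of sterol synthesis and LDL uptake tested, 5 rose at the FDR of 10%, none fell and 19 did not pass. In all, 22 were higher and 2 lower in KO DR liver, with a median log2 difference of 1.11. Insig1, which holds SREBP in the endoplasmic reticulum and is itself its target, had an FPKM of 19.9 (15.1 to 24.8) in KO AL and 79.4 (58.3 to 100.5) in KO DR, a 3.98-fold rise with the narrowest error of the group (log2 difference 1.99, SE 0.26). Idi1, the isomerase of isopentenyl diphosphate, rose from 6.35 (3.07 to 9.63) to 26.9 (13.5 to 40.3), by 4.23-fold (log2 difference 2.08, SE 0.52). Nsdhl, a demethylating dehydrogenase of the late pathway, rose from 7.13 (3.18 to 11.1) to 28.4 (12.7 to 44.1). Cyp51, the lanosterol demethylase, rose from 12.7 (7.27 to 18.1) to 38.0 (20.4 to 55.7). In each of these 4 genes the KO DR interval lies above that of KO AL.

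Most of the other sterol genes had values on the same side with wider errors. Fdps, farnesyl diphosphate synthase, had an FPKM of 11.9 in KO AL and 46.0 in KO DR (log2 difference 1.95, SE 0.63). Msmo1, the methylsterol oxidase, had 62.6 and 238.9 (1.93, SE 0.78). With the smaller SE 16 of the 24 genes were higher and none lower. Srebf2 (17.3 and 17.7) and Hsd17b7 (15.6 and 15.9) differed least, and Ebp and the entry joining Tm7sf2 with its neighbours were slightly lower. At the FDR of 5% and when protein-coding genes alone were tested, Nsdhl and Cyp51 no longer passed. The sequence TCACNCCAC, an SREBP element, was found in 1 of the 16 promoters of this list (Hmgcs1), in none of the 4 called genes that have a promoter in the table, and in 1.24% of all promoters.

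Of 23 genes of fatty acid synthesis 1 rose, Thrsp, a promoter of lipogenesis on chromosome 7 (97412938 to 97417730). Its FPKM was 18.3 (9.19 to 27.3) in KO AL and 324.2 (63.0 to 585.4) in KO DR liver, a 17.8-fold rise with intervals apart (log2 difference 4.15, SE 0.68). Elovl6, the elongase of palmitate, had 3.60 (1.92 to 5.27) and 9.30 (5.20 to 13.4), and its difference of 1.37 (SE 0.46) missed the FDR. Mid1ip1, a Thrsp relative that activates acetyl-CoA carboxylase, had 13.5 and 42.0, and the entry that joins Srebf1 with Mir6922 had 60.7 and 221.4. Fasn had 72.5 (21.4 to 123.5) and 179.4 (0 to 399.2), an overlap that leaves its difference of 1.31 (SE 1.02) unresolved. Scd1, the stearoyl desaturase, had 172.0 and 175.1. The list had 15 genes higher and 8 lower, a median of 0.37, and 4 higher and none lower with the smaller SE.

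**Figure D3:**
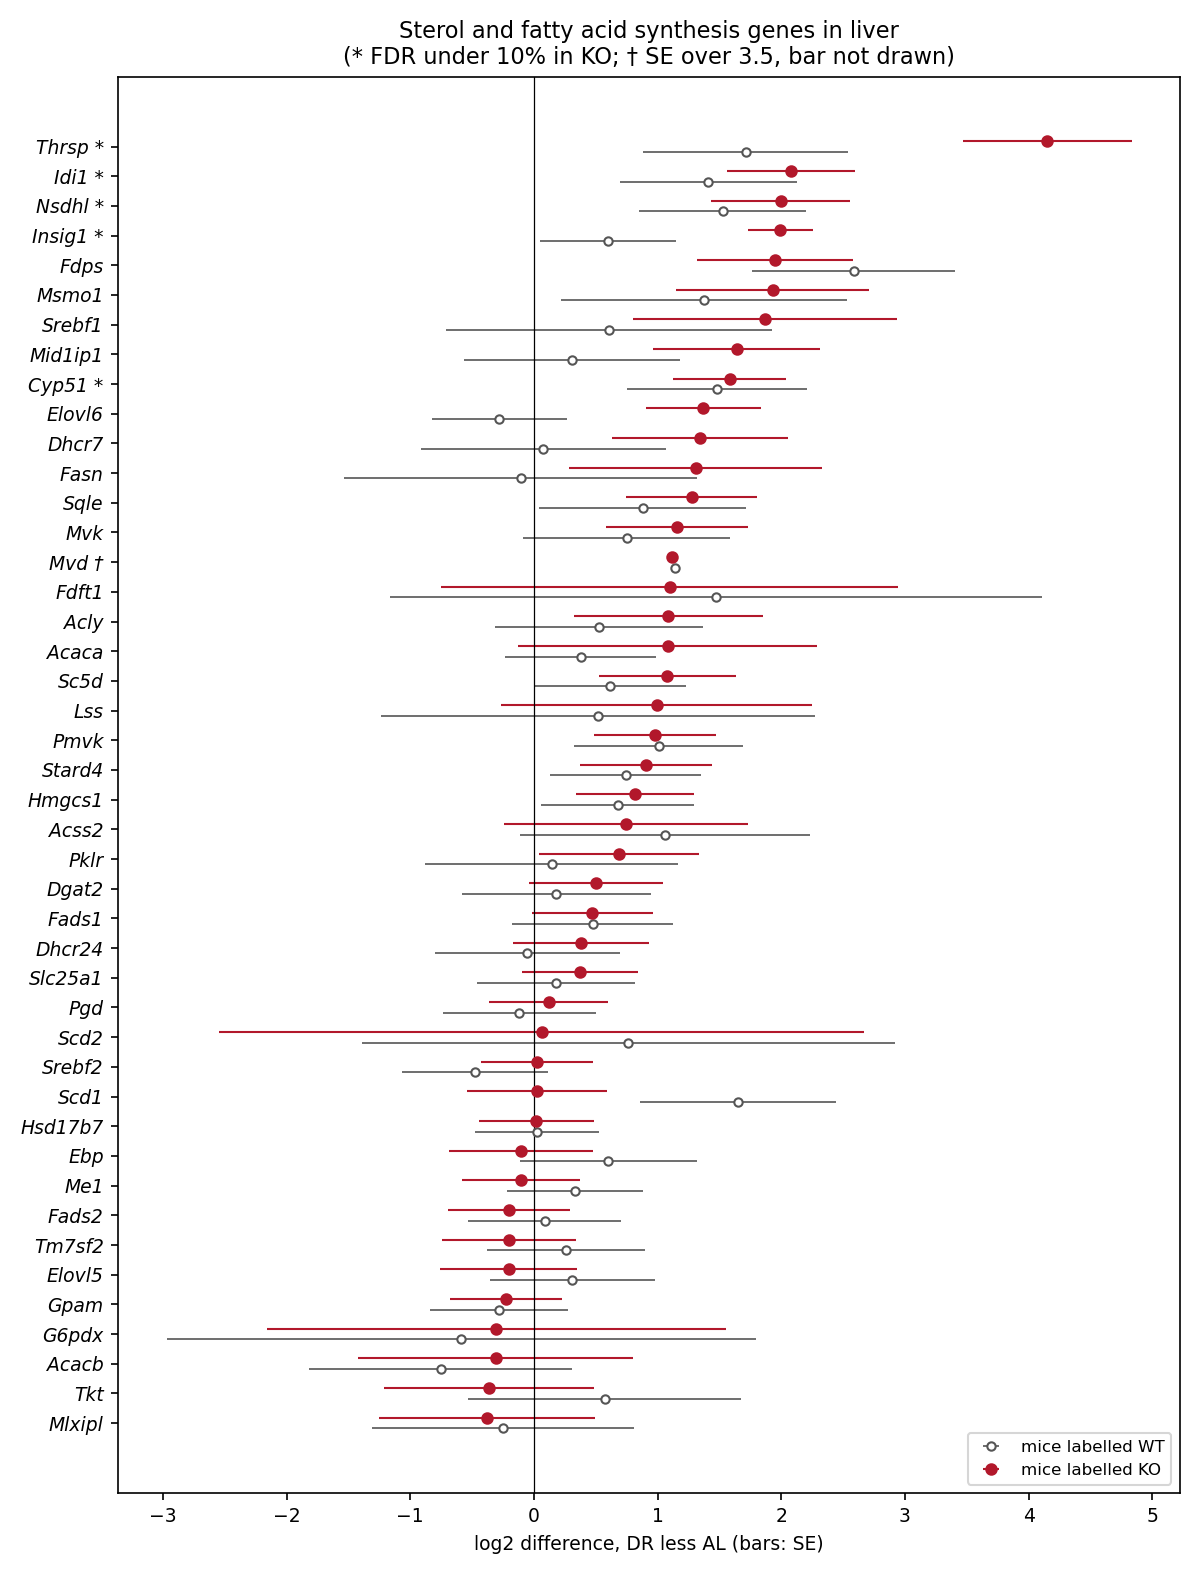
Log2 difference between DR and AL liver (x axis, bars are the SE) of sterol and fatty acid synthesis genes, in mice labelled KO (filled) and WT (open). Thrsp stands highest at 4.15, and the 4 sterol genes marked with a star passed the FDR of 10% in KO. The bar of Mvd, with an SE of 11.6 in KO, is not drawn.

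A pair of secreted proteins that fasting raises, and a cell cycle inhibitor, were lower in KO DR than in KO AL liver. Fgf21, the fasting hormone, fell from 96.1 (54.9 to 137.2) in KO AL to 18.5 (7.94 to 29.2) in KO DR, by 5.18-fold (log2 difference -2.37, SE 0.52). Igfbp1, an IGF binding protein that insulin represses, fell from 270.1 (172.5 to 367.7) to 46.5 (24.7 to 68.2), by 5.81-fold (log2 difference -2.54, SE 0.43). Cdkn1a, the cell cycle inhibitor p21 on chromosome 17 (29090976 to 29100727), had the largest fall among the protein-coding genes called, from 78.3 (40.4 to 116.1) to 3.02 (0.228 to 5.82), 25.9-fold (log2 difference -4.69, SE 0.75). In all 3 genes the intervals are apart. Pdk4, the kinase that shuts pyruvate dehydrogenase, had 9.30 (0.705 to 17.9) and 1.38 (0.276 to 2.49), and its difference of -2.75 (SE 0.88) missed the FDR. Of 30 genes of fatty acid oxidation and ketogenesis, a list that includes Fgf21, that gene alone passed, 23 were lower, and the median was -0.32. Of 19 genes of the growth hormone and IGF axis 2 fell, Igfbp1 and Fgf21, while Igf1 (461.9 in KO AL and 519.1 in KO DR) and Igfbp2 (1258 and 1319) did not pass.

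Among 20 glucocorticoid and fasting genes Cdkn1a was the 1 that fell, and it was also the 1 called of 11 cell cycle genes tested. Gadd45b had an FPKM of 19.8 in KO AL and 5.49 in KO DR (log2 difference -1.85, SE 0.57) and Gadd45g 35.5 and 10.9 (-1.70, SE 0.56). Fkbp5, Klf9, Tsc22d3 and Sgk1, which glucocorticoids induce, had differences between -0.73 and 0.22. No immediate early gene of 16 passed. Of them 14 were lower, 1 with an FPKM of at least 1 only in KO AL, and Egr1 (20.8 and 4.92) and Jun (22.2 and 7.81) had the lowest p. Of 20 insulin signalling genes none passed. Irs2, the other main insulin receptor substrate of liver, had 16.8 in KO AL and 7.99 in KO DR (log2 difference -1.07, SE 0.40), and Sik1, a kinase induced by cAMP, had 2.90 and 7.59 (1.39, SE 0.47).

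Lipid droplet genes held no call among 19. Cidec, a droplet fusion protein, had 19.5 in KO AL and 3.47 in KO DR (log2 difference -2.49, SE 0.76). Plin2, the main droplet coat of hepatocytes, had 1609 and 576 (-1.48, SE 0.78), Plin5 had 154.4 and 54.5 (-1.50, SE 0.49), and Cd36, a fatty acid transporter, had 25.1 and 46.7 (0.90, SE 0.43). With the smaller SE 3 genes of this list were lower and 1 higher.

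Bile acid and P450 genes changed in a few members. Cyp8b1, the sterol 12-hydroxylase that makes cholic acid, fell from 960.0 (431.8 to 1488) in KO AL to 184 (75.7 to 292.0) in KO DR, by 5.22-fold with intervals apart (log2 difference -2.38, SE 0.58). It was the 1 gene called of 18 in the bile acid list. Cyp7a1, the rate-limiting enzyme of bile acid synthesis, had 21.7 (0.896 to 42.6) and 51.1 (0 to 137.9), which overlap. Of 37 xenobiotic P450 genes 22 were higher and 15 lower, and 5 were higher and 4 lower with the smaller SE. Cyp2g1 had 1.42 in KO AL and 5.12 in KO DR (log2 difference 1.84, SE 0.58) and missed the FDR. The 2 genes that fell at the FDR of 10% were Cyp3a44, from 150.1 (74.7 to 225.5) to 23.0 (8.79 to 37.3), and Cyp3a16, from 65.5 (36.5 to 94.5) to 17.3 (8.44 to 26.2). Both are female-biased genes of a cluster on chromosome 5, and the neighbouring Cyp3a41a had 535.1 and 147.6 (log2 difference -1.86, SE 0.65). Of 19 female-biased genes 9 were lower and 10 higher, 1 of these 10 reaching an FPKM of 1 only in KO DR. By sign the Cyp3a genes thus did not stand for the whole list. With the smaller SE 7 of its genes were lower and 4 higher. Of 13 male-biased genes tested none passed, and 2 were lower and none higher with the smaller SE.

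The major urinary proteins, pheromone carriers that the liver secretes, were lower in 19 of 21 genes, with a median log2 difference of -1.35. Their summed FPKM was 9769 in KO AL and 3742 in KO DR liver. Mup17 was the 1 that fell at the FDR of 10%, from 255.4 (152.5 to 358.4) to 86.3 (45.7 to 126.8) (log2 difference -1.57, SE 0.45), and 16 were lower with the smaller SE. It did not pass at the FDR of 5% or among protein-coding genes alone. Mup and Cyp3a genes are families of similar copies that may share reads, which was not measured. The members of each family are therefore not counted as separate pieces of evidence, and the level of a single copy is uncertain.

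The other protein-coding genes called have varied roles, and those without a list were taken by the size of their difference. Upp2, a liver uridine phosphorylase, rose from 28.6 (13.1 to 44.2) in KO AL to 198.3 (80.1 to 316.5) in KO DR, by 6.93-fold (log2 difference 2.79, SE 0.58). Nrep rose by 1.90 (SE 0.50). Tubb2b, a beta-tubulin, fell from 43.5 (23.9 to 63.1) to 8.35 (4.45 to 12.3), and Lrfn3 fell by 2.53 on the log2 scale (SE 0.55). The following were chosen after their values were seen. Derl3, an endoplasmic reticulum factor for the removal of misfolded proteins, rose from 0.424 to 7.50 (log2 difference 4.14, SE 1.16). It did not pass among protein-coding genes alone. Derl3 reached an FPKM of 1 only in KO DR, so the filter itself favoured a higher value there. Tubb2a, next to Tubb2b on chromosome 13, fell from 156.8 (85.8 to 227.8) to 30.7 (16.3 to 45.1). Clpx, the ATP-dependent unfoldase of a mitochondrial protease, fell from 86.7 (49.2 to 124.1) to 19.0 (9.86 to 28.2), and the linker histone gene Hist1h1c fell from 219.6 (136.8 to 302.5) to 67.0 (36.0 to 98.0). Hist1h4i, from 4.70 to 2.94, had an SE of 0.0057, against a median of 0.65 over protein-coding genes, and such narrow intervals occurred in few entries (9 of those tested had an SE under 0.1, and 8 of these were called).

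Markers of some other cell types had lower sums in KO DR liver, though no marker passed the FDR, and their part in the results above was not tested. Of all 8 neutrophil markers 7 had the lower FPKM in KO DR, with a summed FPKM of 86.9 in KO AL and 34.6 in KO DR, and Ly6g was listed at 0 in KO DR. Of the 5 that could be tested, 3 (Ngp, Camp and Retnlg) reached an FPKM of 1 only in KO AL, so the filter itself favoured a lower value in KO DR for them, and S100a9 (58.8 and 17.9) made up most of the sum. Of 12 Kupffer cell and macrophage markers 10 were lower, with sums of 663.0 and 364.2, none at 0, and Lyz2 (113.8 and 47.5, log2 difference -1.26, SE 0.45) had the lowest p. In bulk liver, fewer cells of a type and less RNA per cell cannot be told apart. All 8 skeletal muscle genes had the lower FPKM in KO DR, 2 of the 7 tested (Myh4 and Pvalb) reaching an FPKM of 1 only in KO AL, with sums of 82.6 and 29.1, against 2.49 in WT AL and 10.4 in WT DR. The 8 red blood cell genes summed to 13609 in KO AL and 12080 in KO DR, and to 2700 and 3482 in WT AL and WT DR. With the smaller SE 5 Kupffer cell, 3 neutrophil and 4 skeletal muscle genes were lower and none of them higher. B and plasma cell markers summed to 66.9 and 46.4, most of it Ighm (56.3 and 35.1), while 3 of the 5 tested were higher. Adipocyte genes summed to 26.0 and 16.2, with Cidec lower and the other 2 tested, Fabp4 and Cfd, higher. Of these, Cfd reached an FPKM of 1 only in KO DR. T and NK cell markers summed to 16.2 and 6.56, with Gzma at 0 in KO DR, and pancreatic acinar genes to 13.6 and 13.5, with Prss2 at 0 in KO DR. Endothelial cell markers summed to 211.9 and 230.7 and stellate cell markers to 175.9 and 166.7, and these lists and the 2 cholangiocyte markers tested had medians between -0.02 and 0.08.

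Several lists had no called gene and most members on 1 side of zero, and over all entries tested 52.6% were lower. Of 24 interferon response genes 21 were lower (median -0.73), 3 of them with an FPKM of at least 1 only in KO AL, and Ifit1 had 9.88 in KO AL and 4.14 in KO DR. All 8 MHC class II genes were lower (median -0.86), 1 of them with an FPKM of at least 1 only in KO AL. Also lower were 20 of 23 acute phase genes (median -0.34), 11 of 17 heat shock genes (median -0.59) and 9 of 11 Cyp4a and Cyp4f genes (median -0.66). Cytosolic ribosomal protein genes were higher in 65 of 80 (median 0.30), nuclear respiratory chain subunits in 60 of 70 (median 0.26), and mitochondrially encoded proteins in 8 of 10 (median 0.15). None of these genes passed the FDR in the Wald test, and the medians of the ribosomal, respiratory and mitochondrial lists were smaller than the median SE of their genes. With the smaller SE 7 interferon, 2 MHC class II, 3 acute phase and 4 heat shock genes were lower, and 1 ribosomal protein gene, Rps29, and 1 respiratory gene, Cox6c, were higher. Over all 47 lists, 16 of 832 distinct genes were called, in 12 lists, beside 0.611% of all entries tested and 0.348% of the protein-coding genes. Some called genes sit in more than 1 list. The lists were chosen with earlier results of these data known, so their share of calls is not a result about them.

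**Figure D4:**
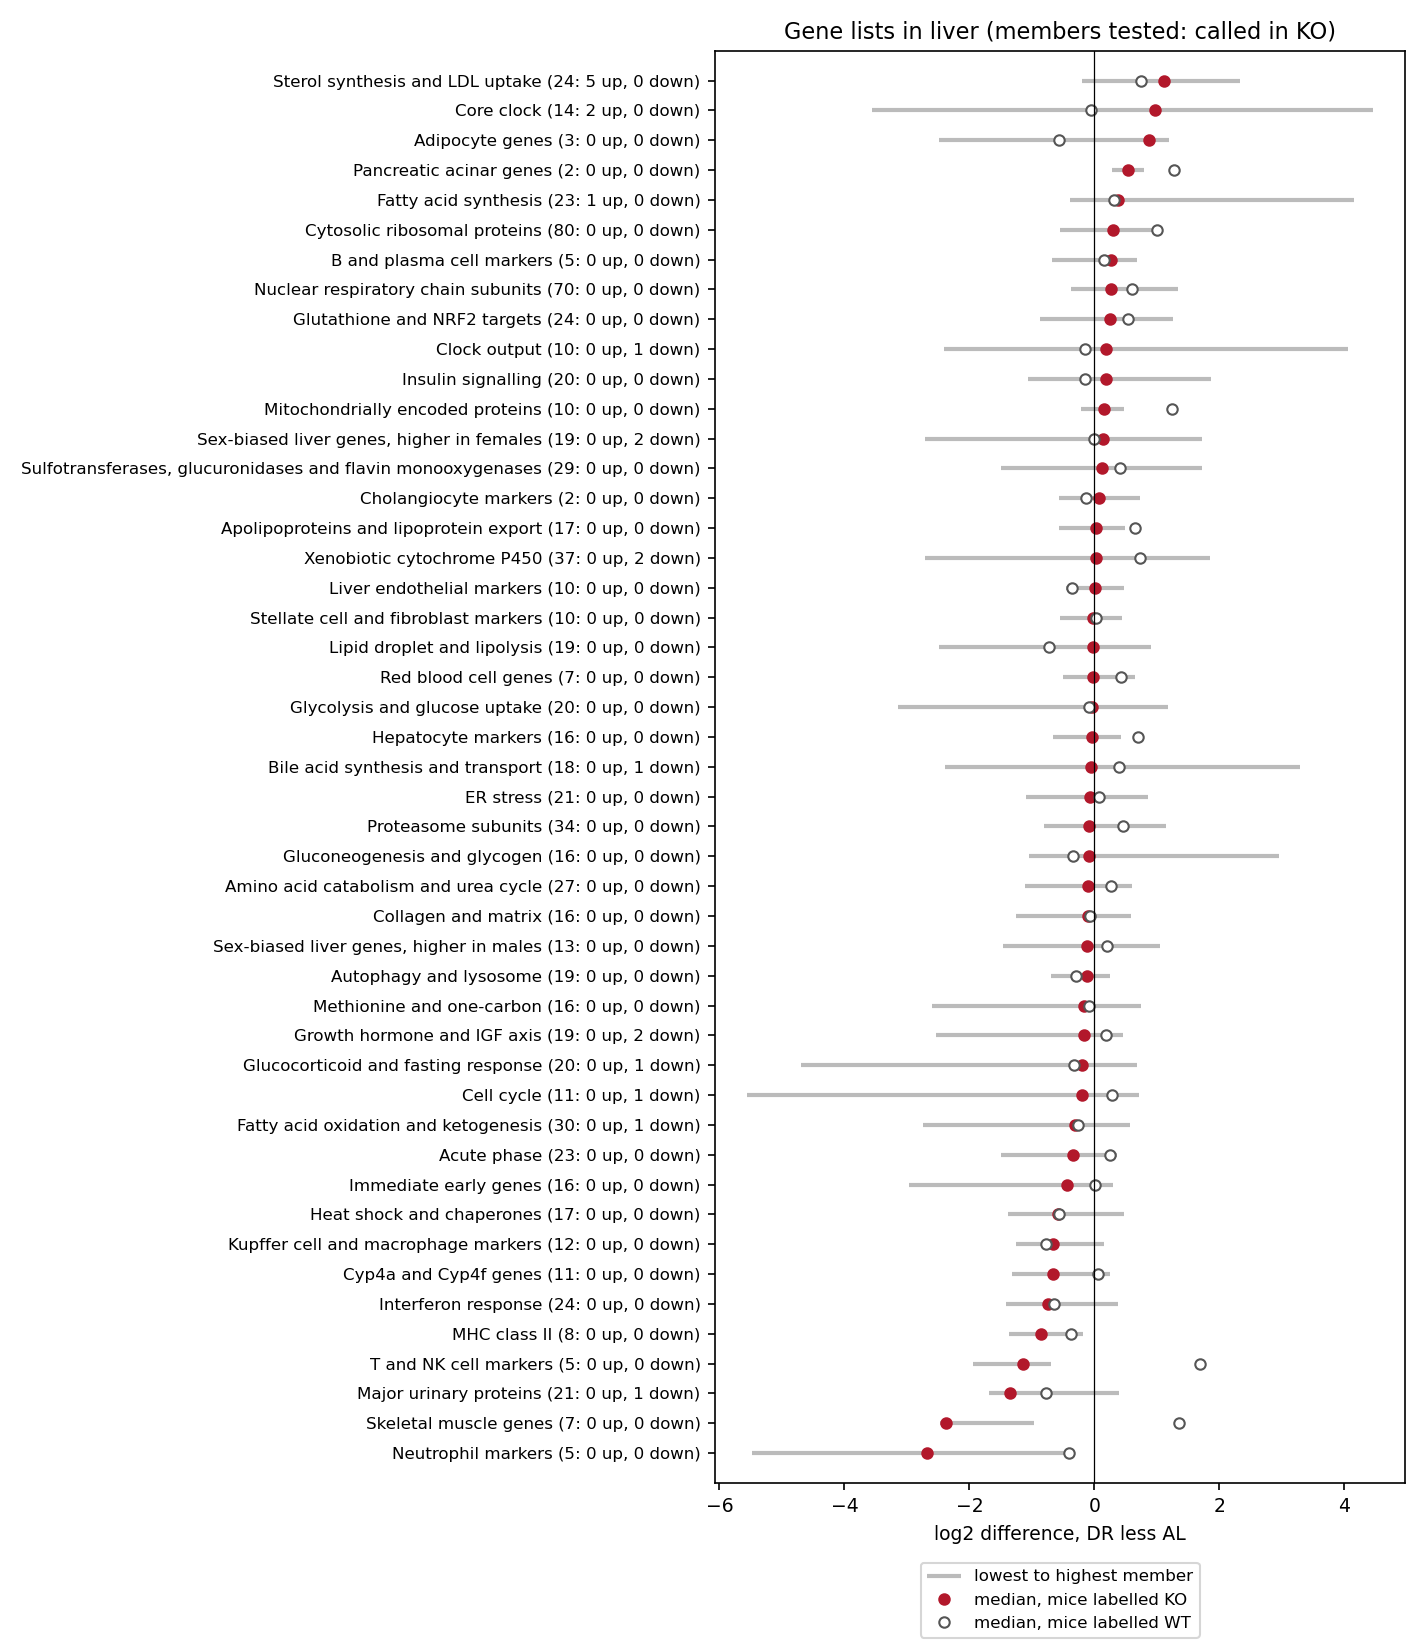
Median log2 difference between DR and AL liver (x axis) of each of the 47 gene lists in mice labelled KO (filled) and WT (open, over members tested in WT too), with a grey line from the lowest to the highest member in KO. The number of members tested and called in KO is beside each name. Sterol synthesis and LDL uptake has the highest KO median at 1.11. In the neutrophil and skeletal muscle lists, lowest in the plot, 3 of 5 and 2 of 7 genes reached an FPKM of 1 only in KO AL.

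The same diet comparison in mice labelled WT shares no library with that in KO. It called 32 of 13539 entries (0.236%), of which 5 are protein-coding. WT AL had 2 libraries and a median SD of 42.6% of the FPKM, and WT DR had 32.3%. The numbers of calls in the 2 genotypes therefore cannot be compared directly. Of the 36 protein-coding genes called in KO, 35 were tested in WT, 30 of them with the same sign there, and 1 was called there too (Hist1h4i). The absolute difference was larger in KO for 30 of the 35, with medians of 2.08 in KO and 1.12 in WT, but the genes were chosen for their difference in KO. Over 9301 protein-coding genes with an FPKM of at least 1 in all 4 groups, the differences in both genotypes had a Pearson r of 0.31 and a Spearman rho of 0.30, given as a description across genes that share their libraries. The list of sterol synthesis and LDL uptake had a median of 0.74 in WT, beside 1.11 in KO, and ribosomal protein genes 1.01, beside 0.30. The core clock list had -0.06 in WT, beside 0.97 in KO.

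The difference between the diet effects themselves was tested over 13956 entries, and 12 passed (0.086%), with 147 at an unadjusted p under 0.05. Igfbp1 was the 1 protein-coding gene among them. In the WT groups its FPKM was 34.9 (interval 15.0 to 54.8) under AL and 82.5 (interval 34.9 to 130.1) under DR, so that the log2 difference was 1.24 (SE 0.59) in WT and -2.54 in KO, and the KO less WT difference was -3.78 (SE 0.72, passing the FDR of 10% in the Wald test but not with a t distribution). KO AL stood above the other 3 groups, whose intervals all end below its own. For Per3 the KO less WT difference was 3.28 (SE 1.21), for Ciart 2.93 (SE 1.70), for Nfil3 -2.14 (SE 0.74), for Fgf21 -2.47 (SE 0.85), for Thrsp 2.44 (SE 1.07) and for Cdkn1a -2.97 (SE 0.96), and none of these passed. Of the sterol genes, Insig1 had a KO less WT difference of 1.39 (SE 0.61), which did not pass, and Idi1, Nsdhl and Cyp51 had differences between 0.10 and 0.67, with SE from 0.86 to 0.88. With the smaller SE 112 entries passed (0.803%), 60 of them protein-coding, and Per3, Nfil3, Fgf21, Thrsp, Cdkn1a and Insig1 were among them while Ciart was not.

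**Figure D5:**
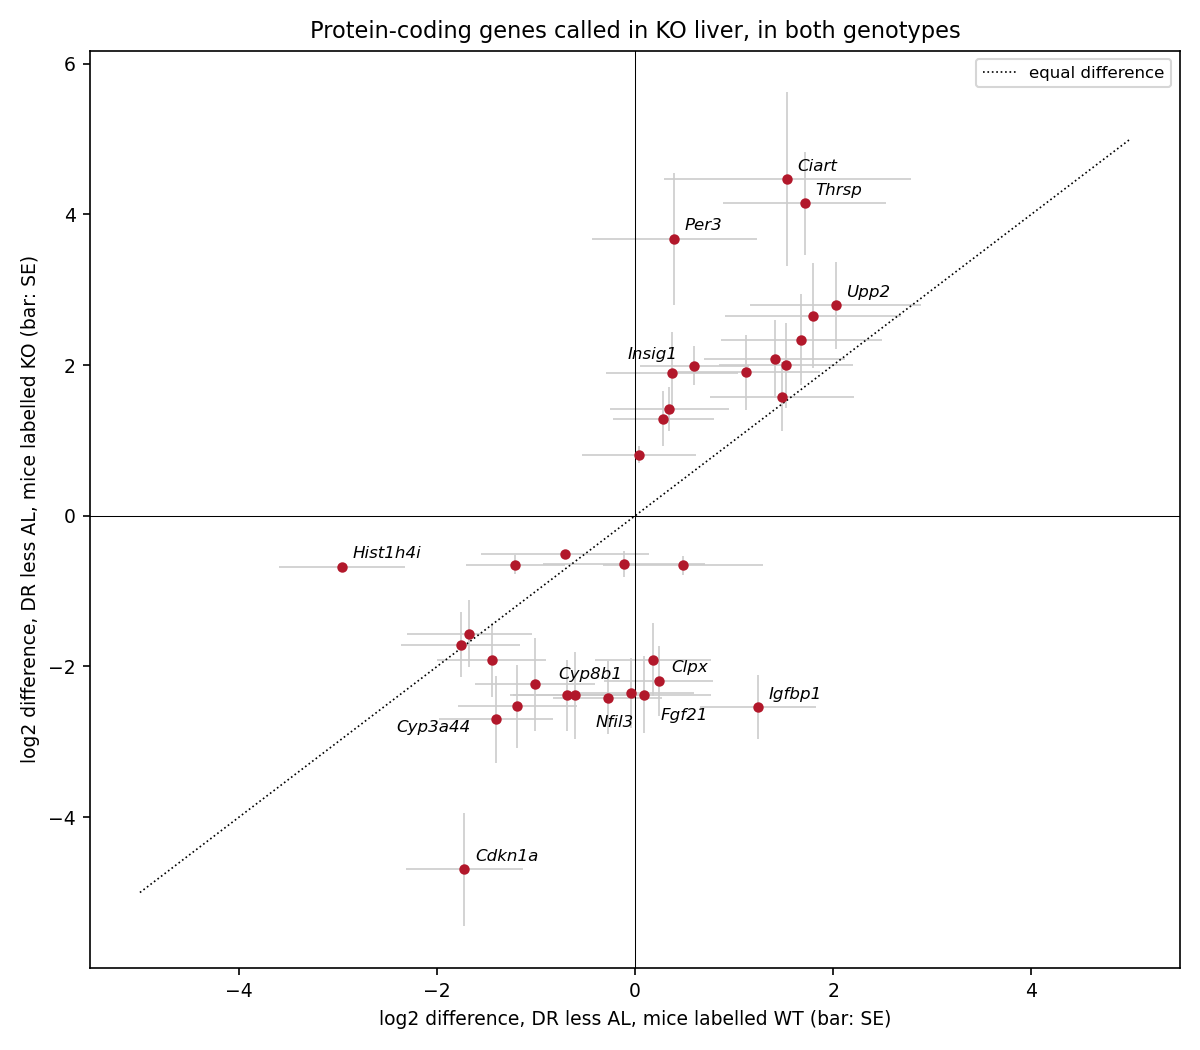
Log2 difference between DR and AL liver in mice labelled KO (y axis) against that in mice labelled WT (x axis) for the 35 protein-coding genes called in KO and tested in both, with bars for the SE and a dotted line of equal difference. Igfbp1 lies at -2.54 in KO and 1.24 in WT, and Hist1h4i is the 1 gene called in both.

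The remaining 258 members were listed at 0 in 1 of the groups, 105 in KO AL and 153 in KO DR, and have no fold change. The highest were short RNAs and immunoglobulin segments. Gm27463 had an FPKM of 525.9 in KO DR and Gm24187 of 349.3, with both listed at 0 in KO AL, as were the heavy chain joining segments Ighj1 (275.5) and Ighj4 (272.5). Snord100 had 356.6 and Gm25506 had 324.0 in KO AL, with both listed at 0 in KO DR. At the other end of the scale, the highest protein-coding levels did not pass the test. Apoe had 40587 in KO AL and 42274 in KO DR, Alb 34112 and 44350, Apoa2 31480 and 42245, and Apoa1 29888 and 30513.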

How the data were processed

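PolyA-selected RNA was sequenced on an Ion Proton instrument. The authors trimmed reads with cutadapt (1.5, per the labels), aligned them to GRCm38 with BBmap, and pooled the libraries of a group in Cuffdiff (2.2.1, per the labels) with geometric normalisation and multi-read correction. The deposited FPKM values, 1 per entry and group with a 95% interval, were the input, and columns of other tissues were not used. No counts or values per library were used, so the depth per library is unknown and no limit for a value of 0 was set.

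The SD of a group was the upper bound less the FPKM, divided by 2. Log2 ratios without a pseudocount were tested with a two-sided Wald test (delta-method SE, normal reference) in Python 3.11.15 (numpy 2.4.6, pandas 2.3.3, scipy 1.17.1), adjusted by Benjamini-Hochberg over all entries with status OK, no FPKM of 0 and a larger FPKM of at least 1. An exact test was not possible without values per library. For lists, counts and medians are given without a test.

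Gene classes and coordinates are those of the GENCODE annotation of GRCm38, matched by symbol for 13152 of the 14005 members, and promoters those of RefSeq. The genes named were Irs1, called members of the lists, up to 15 called single-gene entries per direction by size of difference (neither FPKM under 1), up to 4 genes of a list by lowest p, up to 10 entries by the difference between genotypes, up to 10 by level and up to 6 of those at 0 in 1 group. Other list members are named for their role, and a few genes that counts include are not reported here by name. The comparison, lists and genes were chosen with earlier results of these data known.

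Alternatives included a stricter FDR (5%), calls from intervals lying apart, a t distribution (4 degrees of freedom, 7 between genotypes), pseudocounts of 0.1 and 1, no FPKM filter, an FPKM of at least 5, a 2-fold minimum, centring on the median, joined entries left out and the smaller SE. Protein-coding genes alone were tested after seeing the data.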

Additional observations from a re-analysis of the deposited data

Results flagged for a closer look

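The diet difference in KO liver, less that in WT liver, passed the Wald test at the FDR of 10% in the following named entries. On the log2 scale it was -3.78 for Igfbp1, the 1 protein-coding gene of the group. It was -5.41 for the 5S ribosomal RNA gene n-R5s193 and -4.19 for Snord82, both of which fell in KO liver. It was 7.74 for Gm25360 and 3.45 for Gm25313, 2.80 for Gm22235 and 2.61 for Gm25541, all short non-coding RNAs. The pseudogene Mup-ps5 had 2.50. The entry that joins Wdfy2 with Mir8098 had 6.04, and that of Ppan with Gm24067 had 2.19. In Gm25360 and in the Wdfy2 and Ppan entries the difference lay mostly in WT, where it was -7.64, -4.95 and -1.54, against 0.11, 1.08 and 0.64 in KO. Gm25313 was lower with DR in both genotypes, with -1.67 in KO and -5.13 in WT, so its positive value is no rise in KO.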

How the results depend on the processing

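The counts of entries moved with the error, the reference distribution and the pseudocount. For KO DR against KO AL, 38 higher and 46 lower became 262 and 398 with the smaller SE, 59 and 91 where non-overlapping intervals replaced the test, 137 and 205 with a pseudocount of 0.1, 121 and 181 with a pseudocount of 1, and 11 and 18 when protein-coding genes alone were tested. Of the calls with these pseudocounts, 211 and 160 were entries listed at 0 in a group, which the main test leaves out. A t distribution left 1 higher and 8 lower, none of them on a list, and all 9 have an SE under 0.25. Under the same settings in that order (smaller SE, intervals, pseudocounts of 0.1 and 1, protein-coding genes, t distribution) the distinct list members called, 16 in the main test, became 127, 37, 36, 35, 13 and 0 (46 at an unadjusted p under 0.05 with the t distribution), and the 32 WT calls became 387, 65, 309, 207, 4 and 0 (49 at an unadjusted p under 0.05 with the t distribution). The 12 entries that differed between genotypes became 112, 363 and 287 with the smaller SE and the pseudocounts of 0.1 and 1, 1 among protein-coding genes and 4 with the t distribution. An FDR of 5%, no filter, an FPKM of at least 5, a 2-fold minimum, centring and leaving out joined entries kept each count within 1.5 times, and no named gene called changed direction. For the Wald test the cause of these shifts was not tested beyond the construction of each setting.

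No paired analysis was possible because the table gives 1 pooled value per group, and leaving out each replicate was not run for the same reason. At a median SE of 0.69, small differences could not be detected.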

Other observations

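Genes of carbohydrate metabolism held a few wide differences between KO DR and KO AL liver that did not pass the FDR of 10% in the Wald test. Ppp1r3g, a glycogen-targeting subunit of protein phosphatase 1, had an FPKM of 1.04 in KO AL and 8.08 in KO DR (log2 difference 2.95, SE 0.98), while Ppp1r3b, of the same family, had 40.8 and 22.3 (-0.87, SE 0.36). G6pc, glucose 6-phosphatase, had 190.5 and 92.5, and Slc2a2, the glucose transporter GLUT2, had 75.2 and 162.9. In all, 1 gene of the gluconeogenesis and glycogen list was higher and 2 were lower with the smaller SE. Sult1e1, the estrogen sulfotransferase, had 0.919 in KO AL and 3.02 in KO DR, with a difference of 1.72 in KO and -2.24 in WT. Neither of its differences passed, and that between genotypes did not pass either.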
